A study of Rattus norvegicus with 17 samples.

Results

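Voltage-gated calcium and sodium channels are built from a large pore-forming subunit and smaller auxiliary subunits, and 35 of the 11247 genes in the table encode one or the other. They were chosen by name, as every gene symbol that begins with Cacna, Cacnb or Cacng, or with Scn and a digit. The 17 pore-forming members were 8 calcium channel genes (Cacna1a to Cacna1i) and 9 sodium channel genes (Scn1a to Scn11a). The 18 auxiliary members were 3 α2δ genes, 4 calcium channel β genes, 7 γ genes and 4 sodium channel β genes. All 35 had values in every library, and no filter on low values removed any of them.

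The RNA came from rat primary cultures of the cerebral cortex that held glutamatergic neurons and astrocytes. Cultures had received either empty vector or α-synuclein with the A53T change, which causes familial Parkinson's disease, and each kind was given the solvent DMSO, FK506 at 0.2 µM or FK506 at 2.0 µM. FK506 inhibits calcineurin, the phosphatase that calcium and calmodulin switch on, and the design text calls the lower dose sub-saturating and the higher one saturating. The labels give 3 libraries per group, and 2 for A53T in DMSO. No treatment time, promoter or animal number is given in the sources used here, and replicates may be technical, since no label ties them to different cultures, so a p-value here speaks only of the spread among these libraries.

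In neurons, sodium channels carry the upstroke of the action potential, and calcium channels turn the spike into calcium entry that drives transmitter release, calcineurin and activity-dependent transcription. The pore-forming subunit holds the ion path and the voltage sensors. The α2δ and β subunits carry calcium channels to the membrane and set how they gate, the sodium channel β subunits also act as adhesion molecules, and most neuronal γ subunits are better known as TARPs, which bring AMPA-type glutamate receptors to synapses.

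The table holds normalized gene counts, and library totals of these values ran from 15091428 to 18335540. They are not divided by gene length, so levels are compared between groups and never between genes. Changes are printed as log2 fold changes with their standard errors (-0.89 ± 0.09, for example), from a limma fit to log2(normalized count + 1) with p-values adjusted over all 11247 genes, and "rose" and "fell" are used only below an adjusted p of 0.05. The 3 libraries of A53T at 0.2 µM differed from each other by 0.995 to 1.05 times Poisson sampling noise, against 1.48 to 14.5 times for pairs of the other groups, and were counted as 1 sample by their mean. They also stood far from every other library, so their results are given after the others. Some libraries stood apart from the rest of their own group: in vector, replicate 1 at 0.2 µM and replicate 2 at 2.0 µM, and in A53T, replicate 1 at 2.0 µM. Counts are given with and without these 3. Libraries left out for their deviation lower the spread, which favours higher counts. Neuron and astrocyte markers were present in every group, while 0 of 8 listed microglia markers and 0 of 4 endothelial markers were measured here.

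Promoter sequence is shown for the 5 members that fell at 2.0 µM in both vector and A53T cultures under every alternative setting and that have an entry in the RefSeq table of build GRCr8, which held 24 of the 35. Each line is the 250 bases upstream of the annotated start, 5′ to 3′ on the gene's strand. Capitals mark GGAAA or its reverse complement TTTCC, the core that NFAT factors, which calcineurin activates, bind.
Cacna1a (chr19:40650469-40650718, minus strand): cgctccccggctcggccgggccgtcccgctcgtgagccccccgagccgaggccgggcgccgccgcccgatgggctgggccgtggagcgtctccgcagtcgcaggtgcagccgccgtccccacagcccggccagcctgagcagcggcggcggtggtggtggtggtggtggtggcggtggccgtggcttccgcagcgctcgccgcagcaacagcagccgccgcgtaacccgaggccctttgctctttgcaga
Cacna2d3 (chr16:4918900-4919149, minus strand): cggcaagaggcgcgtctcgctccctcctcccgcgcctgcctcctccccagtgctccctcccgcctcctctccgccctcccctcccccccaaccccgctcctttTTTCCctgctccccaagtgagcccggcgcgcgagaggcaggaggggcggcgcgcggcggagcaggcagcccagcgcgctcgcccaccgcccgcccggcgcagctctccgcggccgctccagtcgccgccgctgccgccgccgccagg
Cacnb2 (chr17:82472965-82473214, plus strand): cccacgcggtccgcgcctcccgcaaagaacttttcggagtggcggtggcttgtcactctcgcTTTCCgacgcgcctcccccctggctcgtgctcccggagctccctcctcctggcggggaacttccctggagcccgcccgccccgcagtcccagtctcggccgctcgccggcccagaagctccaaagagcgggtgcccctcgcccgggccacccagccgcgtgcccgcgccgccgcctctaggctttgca
Cacng8 (chr1:74691004-74691253, minus strand): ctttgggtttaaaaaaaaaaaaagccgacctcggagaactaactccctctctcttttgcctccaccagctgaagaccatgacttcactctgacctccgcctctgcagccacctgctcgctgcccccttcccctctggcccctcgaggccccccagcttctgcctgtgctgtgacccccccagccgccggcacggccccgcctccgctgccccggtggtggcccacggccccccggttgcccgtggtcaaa
Scn7a (chr3:71846285-71846534, minus strand): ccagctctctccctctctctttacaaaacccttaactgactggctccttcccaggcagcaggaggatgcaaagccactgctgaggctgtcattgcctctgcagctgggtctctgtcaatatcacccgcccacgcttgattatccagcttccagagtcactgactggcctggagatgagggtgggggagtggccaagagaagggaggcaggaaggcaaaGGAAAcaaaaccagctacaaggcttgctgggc
Cacna2d3, Cacnb2 and Scn7a have 1 match each, while Cacna1a and Cacng8 have 0 on either strand. Among the 24 members with a promoter, 12 held the motif (50%), beside 56.7% of the 27457 genes in the table. The cAMP response core TGACG or its reverse complement CGTCA was in 3 of the 24 (12.5%), beside 19.0% of all. A match describes the letters only and says nothing of binding.

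At 2.0 µM FK506 in vector cultures, most changes among the channel genes were falls. In this comparison 16 of 35 members fell and 2 rose, where 23.8% and 23.4% of all genes did. The median member had a log2 fold change of -0.47, and the median of all genes was 0.00. The P/Q-type pore gene Cacna1a, the T-type pore genes Cacna1g and Cacna1h, the α2δ gene Cacna2d3 and the TARP gene Cacng8 were among those that fell. In bulk RNA, fewer cells of a type and less RNA per cell cannot be told apart. Of 9 pan-neuronal markers 6 also fell and 0 rose (summed level 33767 to 35628, against 48345 to 52184 in DMSO), and of 7 GABAergic markers 5 fell (summed level 11857 to 13793 against 29977 to 33940). Of 6 glutamatergic markers 2 fell and 0 rose (summed level 5949 to 7464 against 10618 to 12087). The part of these markers in the channel results was not tested. With the 3 libraries that stood apart left out, 17 members fell and 7 rose, beside 30.4% and 30.9% of all genes.

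**Figure D1:**
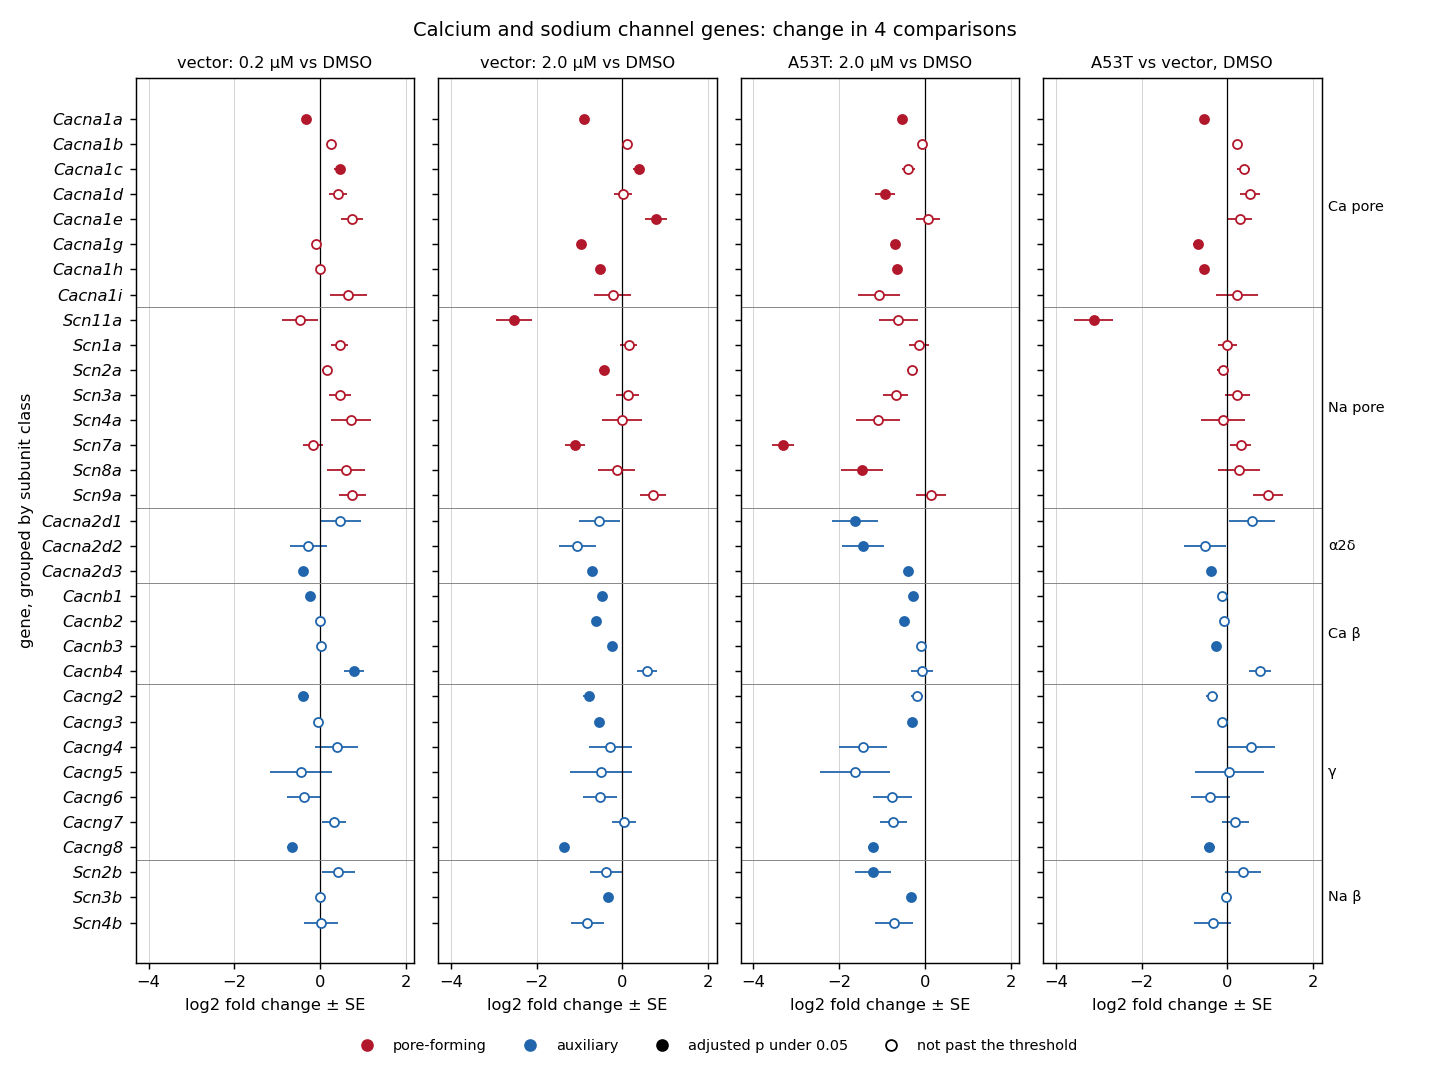
Log2 fold change ± standard error of 33 members (rows, by subunit class) in 4 comparisons (panels), with pore-forming genes in red and auxiliary genes in blue. Filled points passed an adjusted p of 0.05. At 2.0 µM in vector 14 of the members drawn are filled to the left of 0 and 2 to the right, and in A53T 15 and 0.

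Among the calcium channel pores, Cacna1a, which forms the P/Q-type channel of fast-releasing terminals, was at 1509, 1629 and 1501 in vector in DMSO and 877, 798 and 828 at 2.0 µM (-0.89 ± 0.09, adjusted p = 4.3e-06). The 0.2 µM libraries lay between them at 1114, 1365 and 1225. No library of any of these 3 groups overlapped with another group. Cacna1g, a low-voltage-activated T-type pore that shapes burst firing, was at 1348, 1503 and 1395 in DMSO and 698, 789 and 696 at 2.0 µM (-0.96 ± 0.09, adjusted p = 3.6e-06). The second T-type gene, Cacna1h, went from 1369.9, 1373 and 1286 to 896, 961 and 936 (-0.53 ± 0.08, adjusted p = 2.0e-04). In both genes every treated library was below every DMSO library. The third T-type gene, Cacna1i, did not pass (-0.23 ± 0.44, adjusted p = 0.69).

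The high-voltage-activated pores of the L and R types went the other way or did not pass. Cacna1c, the L-type pore best known for signalling from the membrane to the nucleus, was at 297, 287 and 291 in DMSO and 393, 335 and 413 at 2.0 µM, and rose (0.38 ± 0.14, adjusted p = 0.037). Cacna1e, the R-type pore, was at 63.04, 69.3 and 65.2 and 123, 105 and 114, and also rose (0.78 ± 0.25, adjusted p = 0.021). Neither set of groups overlapped. Both calls were close to the threshold and did not hold with 1 library left out. Cacna1c then reached an adjusted p of 0.13, and was lost without any 1 of the DMSO libraries or without replicate 1 or 3 at 2.0 µM. Cacna1e reached 0.067, and was lost without replicate 1 or 3 in DMSO, or replicate 1 or 3 at 2.0 µM. The second L-type gene, Cacna1d, had libraries at 286, 281 and 244 and 283, 215 and 327, which overlapped (0.01 ± 0.21, adjusted p = 0.98). Cacna1b, the N-type pore of presynaptic terminals, did not pass (0.12 ± 0.09, adjusted p = 0.29).

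Of the 9 sodium channel pores 4 fell at 2.0 µM in vector and 0 rose. Scn2a, a main neuronal sodium channel of developing axons, went from 2205, 2297 and 1951 to 1646, 1396 and 1746 (-0.43 ± 0.11, adjusted p = 0.0075). Scn7a, an atypical member that senses sodium concentration and is found in glia, went from 495, 437 and 429 to 239.9, 164 and 235 (-1.11 ± 0.23, adjusted p = 0.0014). Of 8 astrocyte markers 6 also fell in this comparison and 2 rose (summed level 38624 to 40413 against 88863 to 91307), and their part in the Scn7a result was not tested. Scn11a, best known from pain-sensing neurons, was low. It stood at 43.5, 23.4 and 22.8 in DMSO and 3.88, 7.95 and 2.04 at 2.0 µM (-2.54 ± 0.41, adjusted p = 2.8e-04), with no overlap, and at such levels the scale with 1 added understates the change. Scn8a, the pore of mature axon initial segments, ranged over 211, 161 and 157 in DMSO and 188, 102 and 209 at 2.0 µM, and these libraries overlapped (-0.14 ± 0.44, adjusted p = 0.82). The low value at 2.0 µM is replicate 2, 1 of the 3 libraries that stood apart. Scn1a, Scn3a, Scn4a and Scn9a did not pass, with log2 fold changes of 0.15 ± 0.20, 0.12 ± 0.26, -0.01 ± 0.47 and 0.72 ± 0.31.

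Of the auxiliary genes, 9 of 18 fell at 2.0 µM in vector and 0 rose. Cacng8, a TARP of hippocampal and cortical AMPA receptors, had the smallest adjusted p of the 35 members. It went from 656, 737 and 699 in DMSO through 435, 461 and 426 at 0.2 µM to 269, 276 and 266 at 2.0 µM (-1.36 ± 0.11, adjusted p = 7.9e-07 at 2.0 µM). The 3 doses formed 3 separate bands, and the step from 0.2 to 2.0 µM also passed (-0.70 ± 0.11, adjusted p = 3.7e-04). Cacng2, the TARP stargazin, went from 343, 395 and 369.6 to 198, 248 and 197 (-0.79 ± 0.13, adjusted p = 2.3e-04), and Cacng3 from 1528, 1309.8 and 1380.4 to 938, 939 and 992 (-0.55 ± 0.07, adjusted p = 5.0e-05). The other 4 γ genes, Cacng4, Cacng5, Cacng6 and Cacng7, did not pass, with log2 fold changes from -0.52 ± 0.40 to 0.04 ± 0.28.

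Cacna2d3, an α2δ subunit that raises calcium channel number at terminals, was at 2105, 2021 and 2042 in DMSO, 1551, 1625 and 1513 at 0.2 µM and 1215, 1236 and 1322 at 2.0 µM (-0.71 ± 0.06, adjusted p = 1.2e-06). These bands did not overlap either. Its relative Cacna2d2 had the larger fold but more spread, from 214, 148 and 167 to 94.6, 62.2 and 98.2, and did not pass (-1.06 ± 0.43, adjusted p = 0.063). Cacna2d1, the gabapentin-binding subunit, was at 267, 169 and 193 and 156, 80.2 and 226, with overlap (-0.54 ± 0.48, adjusted p = 0.38).

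The β subunits sit on the inner face of the calcium channel and are needed for its surface expression. Cacnb1 fell from 2856, 2825 and 2711 to 2026, 2050.3 and 2001 (-0.47 ± 0.05, adjusted p = 1.4e-05). Cacnb2 fell from 532, 477 and 525 to 358, 322 and 325 (-0.61 ± 0.07, adjusted p = 2.4e-05), and Cacnb3 by less, from 6045, 6255 and 6234 to 5119.9, 5389.8 and 5116 (-0.25 ± 0.05, adjusted p = 0.0021). Cacnb4 had libraries at 86.2, 75.5 and 57.1 in DMSO and 108, 89.2 and 127 at 2.0 µM and did not pass (0.57 ± 0.23, adjusted p = 0.059). It was the only β gene with a positive fold change in this comparison.

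The sodium channel β subunits are single-span proteins that modulate gating and bind other cells. Scn3b fell from 2787, 2945 and 2697 to 2315, 1974 and 2405 (-0.34 ± 0.08, adjusted p = 0.0037). Scn3b did not pass after libraries were rescaled to equal totals (adjusted p = 0.053). Scn2b (-0.38 ± 0.38) and Scn4b (-0.82 ± 0.39) did not pass. Scn2b was at 349, 232 and 253 in DMSO and 245, 129.8 and 290.4 at 2.0 µM, and Scn4b at 28.6, 20.4 and 35.7 and 15.6, 8.04 and 27.3. Both ranges overlapped.

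**Figure D2:**
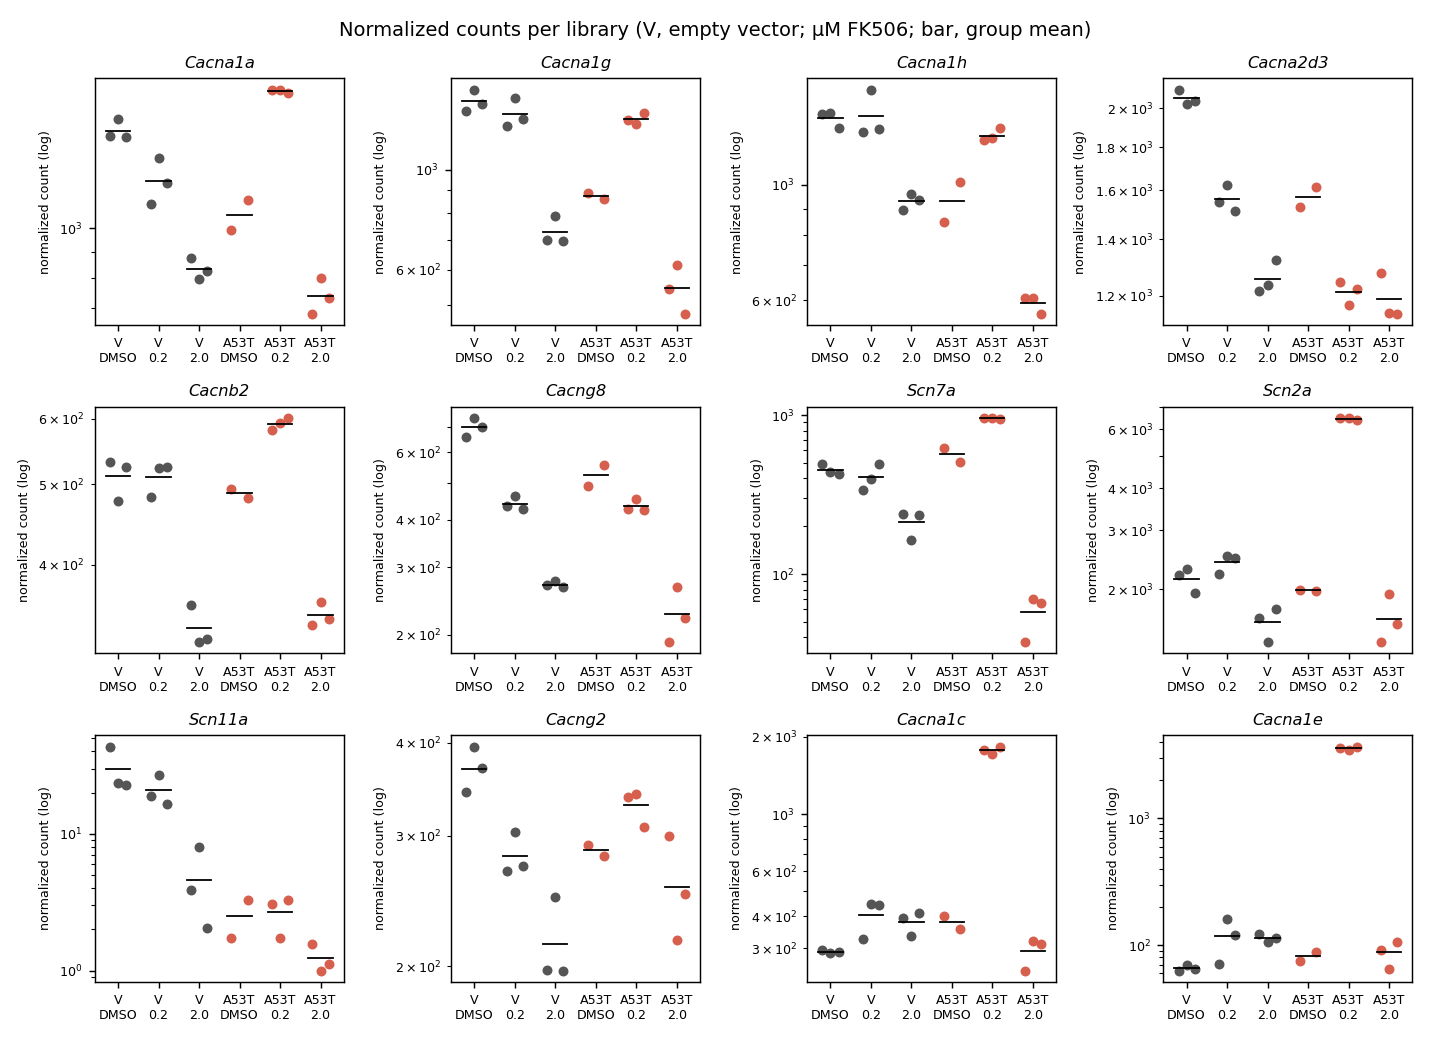
Normalized counts of 12 members in each library (points, log axis) by group, with grey for vector, red for A53T and a bar at the group mean. Cacng8 steps down with dose in vector, Scn11a is lower in A53T than in vector in DMSO, and Cacna1e in A53T at 0.2 µM is far above all other libraries.

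At 0.2 µM in vector, 6 members fell and 2 rose, where 10.6% and 7.70% of all genes did. Among those that fell were Cacna1a (-0.33 ± 0.09), Cacna2d3 (-0.40 ± 0.06), Cacnb1 (-0.23 ± 0.05), Cacng2 (-0.39 ± 0.13) and Cacng8 (-0.66 ± 0.11), and 5 of the 6 were auxiliary. Cacna1c (0.46 ± 0.14, libraries at 326, 446 and 441) and Cacnb4 (0.79 ± 0.23, at 85.3, 148 and 154) rose. In both, replicate 1, which stood apart, was the lowest of the 3. With 1 library left out, Cacna2d3, Cacnb1 and Cacng8 still passed, while the adjusted p reached 0.092 for Cacna1a (lost without replicate 2 or 3 in DMSO or replicate 1 or 3 at 0.2 µM), 0.14 for Cacna1c (without any 1 of the DMSO libraries or replicate 2 or 3 at 0.2 µM), 0.14 for Cacnb4 (without replicate 2 or 3 of either group) and 0.16 for Cacng2 (without any 1 library of either group). Cacnb1 did not pass after quantile normalization or after rescaling to equal totals (adjusted p up to 0.22), and Cacna1a not after rescaling (0.20). In all, 4 members passed without replicate 2 or 3 in DMSO or replicate 3 at 0.2 µM, and 5 without replicate 2 at 0.2 µM. Without the 3 libraries that stood apart, 15 members rose and 6 fell, beside 25.1% and 27.4% of all genes, and after rescaling to equal totals 5 rose and 3 fell, beside 14.7% and 6.46%. The balance of directions at this dose moved with those choices. Of 9 pan-neuronal markers 3 fell at this dose and 0 rose (summed level 42684 to 43230 against 48345 to 52184 in DMSO), of 7 GABAergic markers 4 fell and 0 rose (16983 to 19336 against 29977 to 33940), of 8 astrocyte markers 3 fell and 0 rose (55020 to 59945 against 88863 to 91307), and of 6 glutamatergic markers 0 passed. Their part in the channel results was not tested.

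Between the 2 doses in vector, 15 members were lower at 2.0 µM and 0 higher, where 15.7% and 18.0% of all genes were. All 3 γ genes that fell against DMSO were among them. Cacna1g (-0.86 ± 0.09), Cacna1h (-0.54 ± 0.08), Cacnb2 (-0.61 ± 0.07), Cacnb3 (-0.27 ± 0.05) and Scn2a (-0.60 ± 0.11) passed here and did not pass at 0.2 µM against DMSO. At 0.2 µM Cacna1g was at 1247, 1438 and 1292 and Cacna1h at 1265, 1524 and 1281, which overlapped with their DMSO libraries. Cacng2 did not pass this step without replicate 2 or 3 at 0.2 µM or replicate 1 or 3 at 2.0 µM (adjusted p up to 0.11). Without the 3 libraries that stood apart, 25 members and 22.9% of all genes were lower.

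In A53T cultures, 2.0 µM FK506 against DMSO gave 15 falls and 0 rises among the 35 members, where 17.9% and 19.7% of all genes fell and rose. The median member was at -0.63, and the median of all genes at 0.01. Of pan-neuronal markers 5 of 9 fell and 1 rose (summed level 39171 to 43099 against 46320 to 47401), and of 6 glutamatergic markers 5 fell (summed level 3462 to 5435 against 9659 to 10406). Of 7 GABAergic markers 4 fell and 0 rose (summed level 10531 to 13460 against 15939 to 16288). The part of these markers in the channel results was not tested. With the 3 libraries that stood apart left out, 22 members fell and 0 rose, while 23.3% of all genes fell.

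Scn7a had the largest fall of the 35 members in A53T. It was at 622 and 508 in DMSO and 37.4, 70.03 and 65.7 at 2.0 µM (-3.31 ± 0.25, adjusted p = 4.8e-06), and every treated library was far below both DMSO libraries. Of 8 astrocyte markers 4 fell here and 2 rose (summed level 41822 to 46357 against 75772 to 79383), and their part was not tested. Cacng8 went from 489.6 and 556 to 191, 266 and 221 (-1.21 ± 0.12, adjusted p = 2.5e-05). Cacna1a went from 989.9 and 1136 to 683, 802 and 732 (-0.52 ± 0.10, adjusted p = 0.0017). The T-type genes fell as well, Cacna1g from 888 and 860.4 to 543, 614 and 479.7 (-0.69 ± 0.10, adjusted p = 4.2e-04) and Cacna1h from 849.8 and 1010.3 to 606, 605 and 565 (-0.65 ± 0.09, adjusted p = 3.1e-04). None of these libraries overlapped between the groups.

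The auxiliary genes Cacna2d3 (-0.40 ± 0.07, from 1530.5 and 1612 to 1277, 1147 and 1144), Cacnb2 (-0.49 ± 0.08, from 494 and 482 to 338, 360.2 and 344), Cacnb1 (-0.28 ± 0.06), Cacng3 (-0.31 ± 0.08) and Scn3b (-0.33 ± 0.09) fell by smaller amounts. Cacnb1 went from 2544 and 2627 to 2180.1, 2192 and 2001, Cacng3 from 1267 and 1321 to 975, 1047 and 1114, and Scn3b from 2806 and 2717 to 1998, 2341 and 2288. Other auxiliary falls had wide spread. Cacna2d1 was at 279 and 335 in DMSO and 55.2, 107 and 159 at 2.0 µM (-1.63 ± 0.53, adjusted p = 0.031), Cacna2d2 at 105 and 139 and 20.8, 52.03 and 75.3 (-1.45 ± 0.49, adjusted p = 0.034), and Scn2b at 320.2 and 391 and 93.5, 174 and 217 (-1.21 ± 0.43, adjusted p = 0.041). In all 3 the lowest library was replicate 1, which stood apart. The pores Scn8a (-1.46 ± 0.49, from 175 and 251 to 41.2, 85.04 and 123) and Cacna1d (-0.93 ± 0.23, from 391 and 392 to 152, 246 and 233) fell with the same library lowest.

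With 1 library left out, several of these calls were lost. Without either 1 of the A53T DMSO libraries, Cacna1d (adjusted p up to 0.064), Cacna2d1 (0.16), Cacna2d2 (0.19), Scn2b (0.20), Scn3b (0.090) and Scn8a (0.20) did not pass. Cacna2d1, Cacna2d2, Scn2b and Scn8a also did not pass without replicate 1 at 2.0 µM, and Scn2b without replicate 2. Cacng3 did not pass without the unnumbered DMSO library (0.097). In all, 9 members passed without replicate 1 of A53T in DMSO and 8 without the unnumbered library. The 7 members that passed in every alternative were Cacna1a, Cacna1g, Cacna1h, Cacna2d3, Cacnb2, Cacng8 and Scn7a.

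The vector and A53T comparisons at 2.0 µM share no library. Of the 16 members that fell in vector and the 15 that fell in A53T, 10 were the same, which is 62.5% of the first list and 66.7% of the second. Over all genes, 10.5% fell in both, and the 1185 genes shared were 44.3% of the vector list and 58.7% of the A53T list. The 10 members were Cacna1a, Cacna1g, Cacna1h, Cacna2d3, Cacnb1, Cacnb2, Cacng3, Cacng8, Scn3b and Scn7a, 4 pore-forming and 6 auxiliary.

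A53T against vector in DMSO gave 9 falls and 0 rises, where 8.19% of all genes were lower and 5.85% higher. This comparison shares the vector DMSO libraries with the drug comparisons in vector. Scn11a was at 43.5, 23.4 and 22.8 in vector and 1.72 and 3.26 in A53T (-3.12 ± 0.46, adjusted p = 0.0010). All 3 vector libraries were above both A53T libraries. Scn11a also fell at 2.0 µM in vector. In A53T, where it started low, it did not pass at 2.0 µM (-0.62 ± 0.46, adjusted p = 0.30).

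The calcium channel pores Cacna1a (-0.54 ± 0.10, adjusted p = 0.0032), Cacna1g (-0.69 ± 0.10, adjusted p = 0.0010) and Cacna1h (-0.53 ± 0.09, adjusted p = 0.0027) were lower in A53T, each with no overlap with vector. Among auxiliary genes, Cacna2d3 (-0.39 ± 0.07, adjusted p = 0.0025), Cacnb3 (-0.26 ± 0.06, adjusted p = 0.012) and Cacng8 (-0.42 ± 0.12, adjusted p = 0.036) were lower too. Only Cacna1g and Scn11a passed in every alternative that gave a value. Without replicate 1 of A53T in DMSO, which leaves that group with 1 library assumed to vary like the rest, 3 members passed, while Cacna1a, Cacna1h, Cacnb3 and Cacng8 were among those that did not. Their highest adjusted p with any 1 library left out was 0.067, 0.060, 0.13 and 0.29, in that order. Cacnb3 was also lost without the unnumbered library, and Cacng8 without any 1 library of either group. Without the 3 libraries that stood apart, 11 members fell and 8 rose, beside 20.1% and 18.9% of all genes. Of 7 GABAergic markers 4 fell here and 0 rose (summed level 15939 to 16288 against 29977 to 33940). Of 9 pan-neuronal markers 0 passed, of 6 glutamatergic markers 1 rose and 1 fell, and of 8 astrocyte markers 2 fell and 0 rose. The part of these markers in the channel results was not tested.

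At 2.0 µM, A53T against vector gave 4 members lower and 0 higher, where 9.70% and 9.88% of all genes were. All 4 were pores. Scn7a was at 239.9, 164 and 235 in vector and 37.4, 70.03 and 65.7 in A53T (-1.89 ± 0.23, adjusted p = 1.7e-04), Cacna1h at 896, 961 and 936 and 606, 605 and 565 (-0.65 ± 0.08, adjusted p = 2.5e-04), and Cacna1g at 698, 789 and 696 and 543, 614 and 479.7 (-0.42 ± 0.09, adjusted p = 0.0080). None of these overlapped. Scn7a and Cacna1h passed in every alternative, and Cacna1g did not. Without replicate 3 of A53T at 2.0 µM, 8 members passed, and without the 3 libraries that stood apart 11 were lower, beside 16.8% of all genes.

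The response to 2.0 µM differed between vector and A53T for 5 members, where 8.14% of all genes had the higher value in A53T and 6.45% the lower. Scn7a fell further in A53T (difference -2.21 ± 0.34, adjusted p = 0.0017), and this was the only one of the 5 that passed in every alternative. Cacng2 fell in vector and was at 291 and 282 in A53T in DMSO and 299, 217 and 249.9 at 2.0 µM (difference 0.61 ± 0.19, adjusted p = 0.048). Cacna2d3 fell in both, by less in A53T (difference 0.31 ± 0.09, adjusted p = 0.038). Cacna1c rose in vector and was at 402 and 358 and 246, 321 and 311 in A53T (difference -0.76 ± 0.20, adjusted p = 0.028). With 1 library left out, these last 3 reached adjusted p-values of up to 0.16 (Cacng2), 0.15 (Cacna2d3) and 0.12 (Cacna1c). Only 1 member passed without replicate 2 or 3 of vector in DMSO, replicate 1 of vector at 2.0 µM or either library of A53T in DMSO, 2 passed without replicate 3 of vector at 2.0 µM, and 3 without replicate 1 of vector in DMSO. Without the 3 libraries that stood apart 18 passed, beside 37.8% of all genes.

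Pore-forming and auxiliary genes were set side by side in each comparison. At 2.0 µM in vector 7 of 17 pore genes fell and 2 rose, with a median of -0.14, and 9 of 18 auxiliary genes fell and 0 rose, with a median of -0.51. Leaving out 1 library took this pore median from -0.33 (without replicate 3 at 2.0 µM) to 0.02 (without replicate 2, which stood apart), so its sign rests on 1 library. At 2.0 µM in A53T the medians were -0.63 and -0.60, with 6 and 9 falls. At 0.2 µM in vector the pore median was 0.42 and the auxiliary median -0.03. A53T against vector in DMSO gave 0.22 and -0.12, so the pore median was above 0 while 5 pore genes fell and 0 rose. The medians of libraries within a group spread by an SD of 0.29 for pore and 0.14 for auxiliary genes (pooled over the 14 libraries outside A53T at 0.2 µM). The gap between the classes was not tested.

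**Figure D3:**
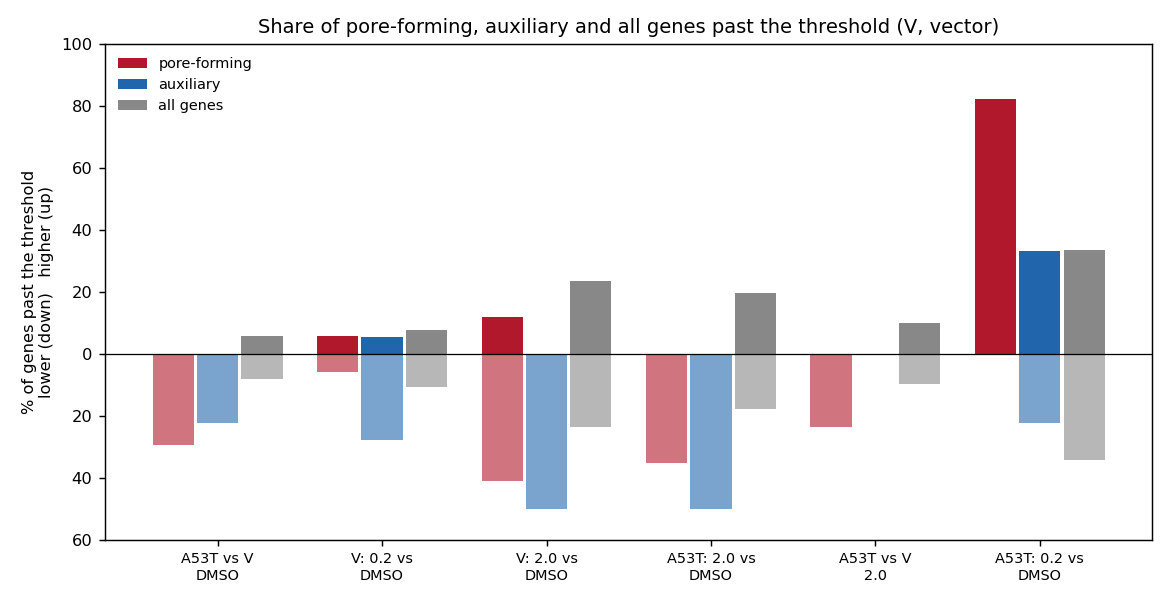
Share of the 17 pore-forming genes, the 18 auxiliary genes and all 11247 genes that passed an adjusted p of 0.05, drawn upward for genes that were higher and downward, in paler colour, for genes that were lower, in 6 comparisons. At 2.0 µM 50% of auxiliary genes were lower in vector and in A53T, and 82.4% of pore genes were higher in A53T at 0.2 µM.

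A53T at 0.2 µM differed from all other groups in these genes. Against A53T in DMSO 20 members rose and 4 fell, where 33.6% and 34.2% of all genes did. Of the pores 14 of 17 rose and 0 fell (median 1.78), and of the auxiliary genes 6 of 18 rose and 4 fell (median 0.31). This group counts as 1 sample and is assumed to vary like the others. Cacna1e was at 75.4 and 88.4 in DMSO and 3568, 3448 and 3687 at 0.2 µM (5.43 ± 0.38, adjusted p = 1.3e-06). Scn8a was at 2854, 2898 and 2908 (3.78 ± 0.65) and Cacna2d1 at 4086, 3905 and 3986 (3.70 ± 0.71), above every library of the other groups. Cacnb4 was at 1559, 1541 and 1534 (3.65 ± 0.34) and Scn2a at 6485, 6488 and 6385 (1.70 ± 0.17). Pores that passed in none of the main comparisons also rose here. Cacna1i was at 1472, 1535 and 1559.9, against 158 and 154 in DMSO (3.28 ± 0.66), and Scn3a at 2411, 2262 and 2286 against 321 and 361 (2.77 ± 0.39). Pan-neuronal markers had a summed level of 56838 to 57986 here against 46320 to 47401 in DMSO, with 3 of 9 higher and 2 lower. Glutamatergic markers were at 13677 to 14041 against 9659 to 10406, with 3 of 6 higher and 1 lower. GABAergic markers were at 11094 to 11124 against 15939 to 16288 (1 of 7 higher and 3 lower) and astrocyte markers at 51342 to 51818 against 75772 to 79383 (2 of 8 higher and 3 lower). The part of these markers in the channel results was not tested.

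The 4 members that fell there were auxiliary. Cacnb3 was at 3842, 3689 and 3789, against 5056 and 5252 in DMSO (-0.45 ± 0.08, adjusted p = 4.1e-04). Cacnb1 (-0.26 ± 0.08) and Cacna2d3 (-0.37 ± 0.09) fell by smaller amounts. None of the 7 γ genes passed, with log2 fold changes from -0.95 ± 0.60 to 1.51 ± 1.09, 4 above 0 and 3 below. Cacng4 was at 810, 789 and 772 against 282 and 297 in DMSO, and Cacng7 at 1100, 1140 and 1157 against 571 and 585. Between the doses in A53T, 5 of the 7 γ genes were lower at 2.0 µM and 0 higher, beside 38.5% and 38.7% of all genes. Against vector at the same dose 17 members were higher and 4 lower (33.8% and 35.1% of all genes), and against 2.0 µM in A53T 27 members were lower at the higher dose and 2 higher (38.5% and 38.7% of all genes). Both comparisons share the A53T 0.2 µM libraries with the first. After quantile normalization the median of all genes in the comparison with DMSO moved from 0.00 to -0.20, and the auxiliary median from 0.31 to -0.03, so the sign of the auxiliary median depends on the scaling.

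The difference between A53T at 0.2 µM and A53T in DMSO was mirrored inside other groups, over all genes and more weakly over the members by Pearson r. In replicate 1 of vector at 0.2 µM, 30 of 35 members were below the mean of the other 2 libraries of that group (median -0.28 on the log2 scale), while the median of all genes was 0.03. Across the 35 genes, this deviation and the difference between A53T at 0.2 µM and A53T in DMSO had Pearson r = -0.64 and Spearman rho = -0.78, and over all 11247 genes r = -0.76. The libraries on the 2 sides are distinct, the points share them, and genes are not independent replicates, so these values only describe. For replicate 2 of vector at 2.0 µM r was -0.51 over the members, with 23 below 0, and -0.64 over all genes. For replicate 1 of A53T at 2.0 µM it was -0.46 over the members, with 25 below 0, and -0.66 over all genes. Members higher in A53T at 0.2 µM thus tended to be lower in these 3 libraries. The other libraries of the same groups had r from 0.26 to 0.65 over all genes. The highest was replicate 3 of A53T at 2.0 µM, with 0.63 over the members. Deviations within a group depend on each other. In vector in DMSO, where no library was set apart, replicates 1, 2 and 3 had r of 0.48, -0.22 and -0.30 over all genes. What sets the libraries apart was not tested.

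**Figure D4:**
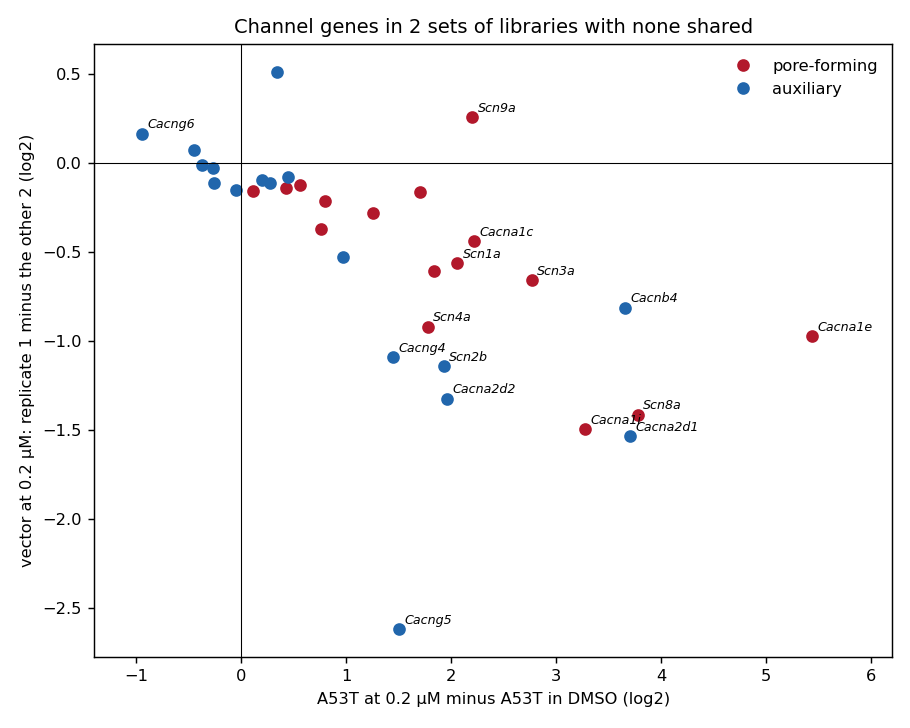
Each point is 1 of 33 members, red for pore-forming and blue for auxiliary. The x axis is the log2 difference between A53T at 0.2 µM and A53T in DMSO, and the y axis the log2 difference between replicate 1 of vector at 0.2 µM and the other 2 libraries of its group. Members far to the right, such as Cacna1e, Scn8a and Cacna2d1, lie below 0 on the y axis, and r over all 35 members is -0.64.

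The 11 members that passed neither in A53T against vector in DMSO nor in the drug comparisons other than A53T at 0.2 µM were Cacna1b, Cacna1i, Cacng4, Cacng5, Cacng6, Cacng7, Scn1a, Scn3a, Scn4a, Scn4b and Scn9a. Outside A53T at 0.2 µM, Cacna1b ranged over 1469 to 2076 in 14 libraries and Cacna1i over 38.7 to 324. The pores Scn1a, known from inhibitory interneurons, Scn3a, mainly embryonic, and Scn9a, known from pain-sensing neurons, ranged over 234 to 576, 141 to 470.1 and 18.9 to 75.04. The TARP genes Cacng4 and Cacng7 ranged over 38.7 to 344 and 212 to 722. Cacng5, Cacng6 and Scn4a, the skeletal muscle sodium channel, were low, at 0.22 to 14.4, 3.24 to 19.7 and 2.00 to 21.2.

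Several of these genes are neighbours of members that fell. In the GRCr8 gene order, Cacng8 lies between Cacng6 and Cacng7 with no other protein-coding gene between them, and Scn3a is next to Scn2a. Scn1a, Scn9a and Scn7a follow each other in that order. At 2.0 µM in vector Cacng8 fell by 1.36 on the log2 scale while Cacng7 was at 0.04 ± 0.28, and Scn7a fell by 1.11 while its neighbour Scn9a was at 0.72 ± 0.31.

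Partner genes were read from lists of known channel partners. Of 12 measured partners of sodium channels and the axon initial segment, 8 fell and 0 rose at 2.0 µM in vector, and 6 fell and 0 rose in A53T. Cntnap1, a paranodal adhesion protein, fell in both (-0.91 ± 0.09 and -0.76 ± 0.10), as did the sodium channel modulator Fgf13 (-0.83 ± 0.18 and -0.57 ± 0.20). Fgf12, of the same family, fell in vector (-0.59 ± 0.09) and did not pass in A53T (-0.15 ± 0.10, adjusted p = 0.22). The sodium leak channel Nalcn (-1.37 ± 0.22 and -0.95 ± 0.24) and its partner Unc79 (-0.37 ± 0.11 and -0.56 ± 0.12) fell in both.

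Among 15 measured calcium channel partners, 6 fell and 1 rose at 2.0 µM in vector, and 6 fell and 1 rose in A53T. The genes were not all the same, since Gem (see the last section) rose in vector and fell in A53T. Rimbp2, which ties calcium channels to the active zone, fell in both (-1.16 ± 0.10 and -0.70 ± 0.11). Of 10 measured AMPA receptor pores and other receptor auxiliary genes, the partners of TARPs, 8 fell in vector and 7 in A53T, with 0 higher. The receptor pore Gria3 (-1.07 ± 0.15 and -0.76 ± 0.17) and the auxiliary Cnih3 (-1.26 ± 0.11 and -0.65 ± 0.12) were among them. The share of all genes that fell was 23.8% in vector and 17.9% in A53T.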

How the data were processed

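Messenger RNA was read in 17 libraries made with a stranded kit, per the labels' protocols. Per the submitters' processing notes, the tools were FastQC, TopHat and HTSeq, with rat build rn6. Tool versions, how counts were normalized, the strand setting and read depth are not given in the sources used here. For each gene, what the authors deposited is a signal, namely counts they had normalized, most of them no longer whole, so no count test and no interval for counting error is given. All 35 symbols matched RefSeq.

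A pseudocount of 1 was added to each value, log2 was taken, and limma 3.58.1 in R 4.3.3 (with a mean-variance trend) was run in 1 fit of 15 samples, with 9 residual degrees of freedom and 10 contrasts, and Benjamini-Hochberg adjustment over 11247 genes at 0.05. The libraries of A53T at 0.2 µM entered as their mean. A minimum mean of 1 removed 0 genes. The titles number the A53T DMSO samples 1 and 2 while the columns carry 1 and 3, so 1 column was used as an unnumbered library. The fit was tested on simulated data. The 35 members, lists and alternatives were chosen with earlier results of these data known. Values per library are given for members past the threshold in any of 4 comparisons (A53T against vector in DMSO, each dose against DMSO in vector, and 2.0 µM against DMSO in A53T) and for the member with the largest fold of each subunit class at 2.0 µM in vector, 25 in all. Counts and medians cover all 35 members, but results for 2 members and for a few other genes are not reported here, and those members are not drawn in figures of single genes. At most 4 genes of a partner list are named, by smallest p at 2.0 µM in vector. Figures were drawn with matplotlib 3.10.9 and sequences read with Python 3.11.15.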

Additional observations from a re-analysis of the deposited data

Results flagged for a closer look

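The response to 2.0 µM FK506 was compared as A53T minus vector on the log2 scale. The difference itself passed (limma, adjusted over all genes) for 5 of 35 members (14.3%), beside 14.6% of all genes. Of the 5 members 4 are given, and only Scn7a passed in every alternative. The glial sodium sensor Scn7a differed by -2.21, with falls in both cultures, and the L-type pore Cacna1c by -0.76. The TARP gene Cacng2 differed by 0.61 and the α2δ gene Cacna2d3 by 0.31.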

How the results depend on the processing

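Of 148 calls of a single member in a comparison, 108 passed in every alternative that gave a value and 0 changed sign. A large part of both numbers comes from comparisons with A53T at 0.2 µM, a group counted as 1 sample, whose calls met fewer alternatives. Elsewhere 15 of 18 calls held at 2.0 µM in vector, 13 of 15 between doses in vector and 7 of 15 at 2.0 µM in A53T. At 0.2 µM in vector 3 of 8 held. For A53T against vector 2 of 9 held in DMSO and 2 of 4 at 2.0 µM, and for the difference in response 1 of 5. The pseudocounts of 0.25 and 4 moved no count of members by over 1.5 times, and the minimum mean of 20 no such count either. The alternative with no filter is the main fit again, because the minimum mean of 1 removed 0 genes.

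Fitting just the groups in question gave 19 members for A53T against vector in DMSO (9 in the fit of all groups), 9 for 2.0 µM in A53T (15) and 2 for A53T against vector at 2.0 µM (4). All 17 libraries as separate samples gave 8 members for the difference in response (5). The share of all genes in that setting is not given, so this count does not tell a change in the members from a change over all genes. Rescaling to equal totals gave 3, beside 5.85% of all genes higher and 9.08% lower. Without the 3 libraries that stood apart, a choice made after seeing the data, 19 members passed for A53T against vector in DMSO, 21 at 0.2 µM in vector (8), 25 between doses in vector (15), 11 for A53T against vector at 2.0 µM and 18 for the difference. Leaving the A53T 0.2 µM libraries out of the fit moved none. These libraries entered as their mean and so added no spread within a group. This alternative could therefore hardly change the other comparisons, and it is no check on them.

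Same-numbered libraries did not deviate together more than others: r ran from -0.51 to 0.67 over 18 pairs, 7 of them over 0.1. Over 36 pairs with different numbers r ran from -0.64 to 0.64, with 20 over 0.1. Of 12 libraries 5 were closer to those with their own number. The numbers were therefore not taken to pair the samples. A replicate block by title numbers, which drops the unnumbered and averaged samples, gave 4 members for A53T against vector in DMSO, 5 at 0.2 µM in vector, 9 at 2.0 µM in A53T and 1 for the difference. A block by column numbers gave 3 for the difference, again without the share of all genes. Shares of all genes moved with these counts: from 14.0% to 37.1%, 39% and 2.94% for A53T against vector in DMSO (own groups, 3 libraries out, title block), from 18.3% to 52.4% and 11.7% at 0.2 µM in vector (3 libraries out, title block), from 37.6% to 15.9% and 14.1% at 2.0 µM in A53T (own groups, title block), from 19.6% to 6.12% and 33.5% for A53T against vector at 2.0 µM (own groups, 3 libraries out), and from 14.6% to 37.8% and 3.44% for the difference (3 libraries out, title block).

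The auxiliary median went to -0.026 (A53T at 0.2 µM against DMSO), -0.44 (2.0 µM in A53T), -0.53 (2.0 against 0.2 µM in A53T) and -0.046 (A53T against vector at 0.2 µM) with quantile normalization, to -1.04 in A53T between doses after rescaling, and at 2.0 µM in A53T to -0.45 with a minimum mean of 20 and -0.44 with the block by title numbers. The cause was not tested.

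Leaving out 1 library gave 3 to 10 members for A53T against vector in DMSO, 4 to 12 at 0.2 µM in vector, 8 to 20 at 2.0 µM in A53T, 3 to 8 for A53T against vector at 2.0 µM and 1 to 7 for the difference. For these and the other counts with 1 library left out, the share of all genes is not given. Such counts alone do not tell a change in the members from a change over all genes. With 1 library left out, the pore median at 2.0 µM in vector ran from -0.33 to 0.02. Auxiliary medians ran from -0.52 to -0.33 between doses in vector and from -0.65 to -0.43 at 2.0 µM in A53T. Rescaling raised the share of higher among called genes from 42.1% to 69.5% at 0.2 µM in vector, and lowered it from 50.5% to 35.0% for A53T against vector at 2.0 µM and from 55.8% to 39.2% for the difference. After rescaling the median of all genes stood at 0.12 at 0.2 µM in vector, 0.11 at 0.2 µM in A53T, -0.15 between doses in A53T and -0.12 for the difference, and after quantile normalization at 0.25 between doses in A53T and -0.22 for A53T against vector at 0.2 µM. Raw depth is unknown, which limits Scn11a and other low members.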

Other observations

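Gem and Rem2 encode small GTP-binding proteins that bind calcium channel β subunits and reduce calcium current. Gem rose at 2.0 µM in vector (0.82 ± 0.20, adjusted p = 0.0041) and fell in A53T (-0.73 ± 0.22, adjusted p = 0.023), and the responses differed (A53T minus vector -1.55 ± 0.30, adjusted p = 0.0055). Rem2 was lower in A53T than in vector in DMSO (-0.71 ± 0.13, adjusted p = 0.0032) and fell at 2.0 µM in vector (-0.45 ± 0.11, adjusted p = 0.0055). Both genes were singled out after their values were seen.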
